A study of Mus musculus with 12 samples.

Results

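NRF2 and the antioxidant and detoxifying genes that it is known to control were examined in BN1-Tie2-EGFP cells, a murine hepatoblastoma (HB) line. The 39 genes were taken by name from a table of 45706 genes: NRF2 (Nfe2l2), its inhibitor KEAP1 (Keap1), and 37 genes of glutathione and thioredoxin metabolism, NADPH supply, conjugation, reduction, efflux and heme breakdown. Of these, 38 had a mean of at least 0.1 TPM (a relative abundance corrected for transcript length) and were tested. The other, Gpx2, an epithelial glutathione peroxidase, was listed at 0 in all 12 libraries. BN1 cells came from a tumor of FVB/N mouse liver made with B, a deletion mutant of β-catenin, and N, a missense mutant of NRF2, with exon 2 of Cdkn2a targeted by Crispr. All 4 groups carried these changes and an EGFP reporter driven by the Tie2 promoter, in stable clones that had been pooled, so the experiment rests on 1 cell line. There were 3 libraries a group. UN cells were unsorted and normoxic (21% oxygen). UH cells were also unsorted but spent 2 days at 1% oxygen. To obtain SN cells, the brightest EGFP cells of a culture kept hypoxic for 2 days were isolated by flow cytometry and grown at normal oxygen for some 10 days. SH cells came from SN cells by a second exposure of 2 days to 1% oxygen. The study calls its replicates independent, and the labels do not say whether they were separate cultures, so the p-values measure the spread between these libraries, which may be technical.

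NRF2 is a leucine zipper transcription factor that KEAP1 holds in the cytoplasm and delivers to a ubiquitin ligase for breakdown. Oxidants and electrophiles modify KEAP1, and NRF2 then accumulates, pairs with small MAF proteins and binds antioxidant response elements in its target genes. Tumor-associated missense mutants of NRF2 commonly lie in the short motifs that KEAP1 binds, and the targets are then kept on without a stress. In the liver this program supplies glutathione, thioredoxin and NADPH and conjugates drugs and lipid peroxides for export.

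The summed level of the 39 genes was 3857, 4922 and 4985 TPM in the UN libraries and 2858, 2902 and 3161 TPM in the UH libraries. It was 4586, 4546 and 4672 TPM in the SN libraries and 2765, 2955 and 2657 TPM in the SH libraries. Both hypoxic groups were thus below both normoxic groups in every library, although a few abundant genes carry most of such a sum. The highest group mean was in SN cells for 17 of the 38 tested genes and in SH cells for 2, against 22.5% and 29.6% of all tested genes. The lowest mean was in UN for 7, in UH for 17, in SN for 2 and in SH cells for 12 of them. The shares of all tested genes were 18.6%, 39.0%, 25.7% and 16.7%, so the 17 in UH cells were near the share there. These are group means with no test.

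**Figure D1:**
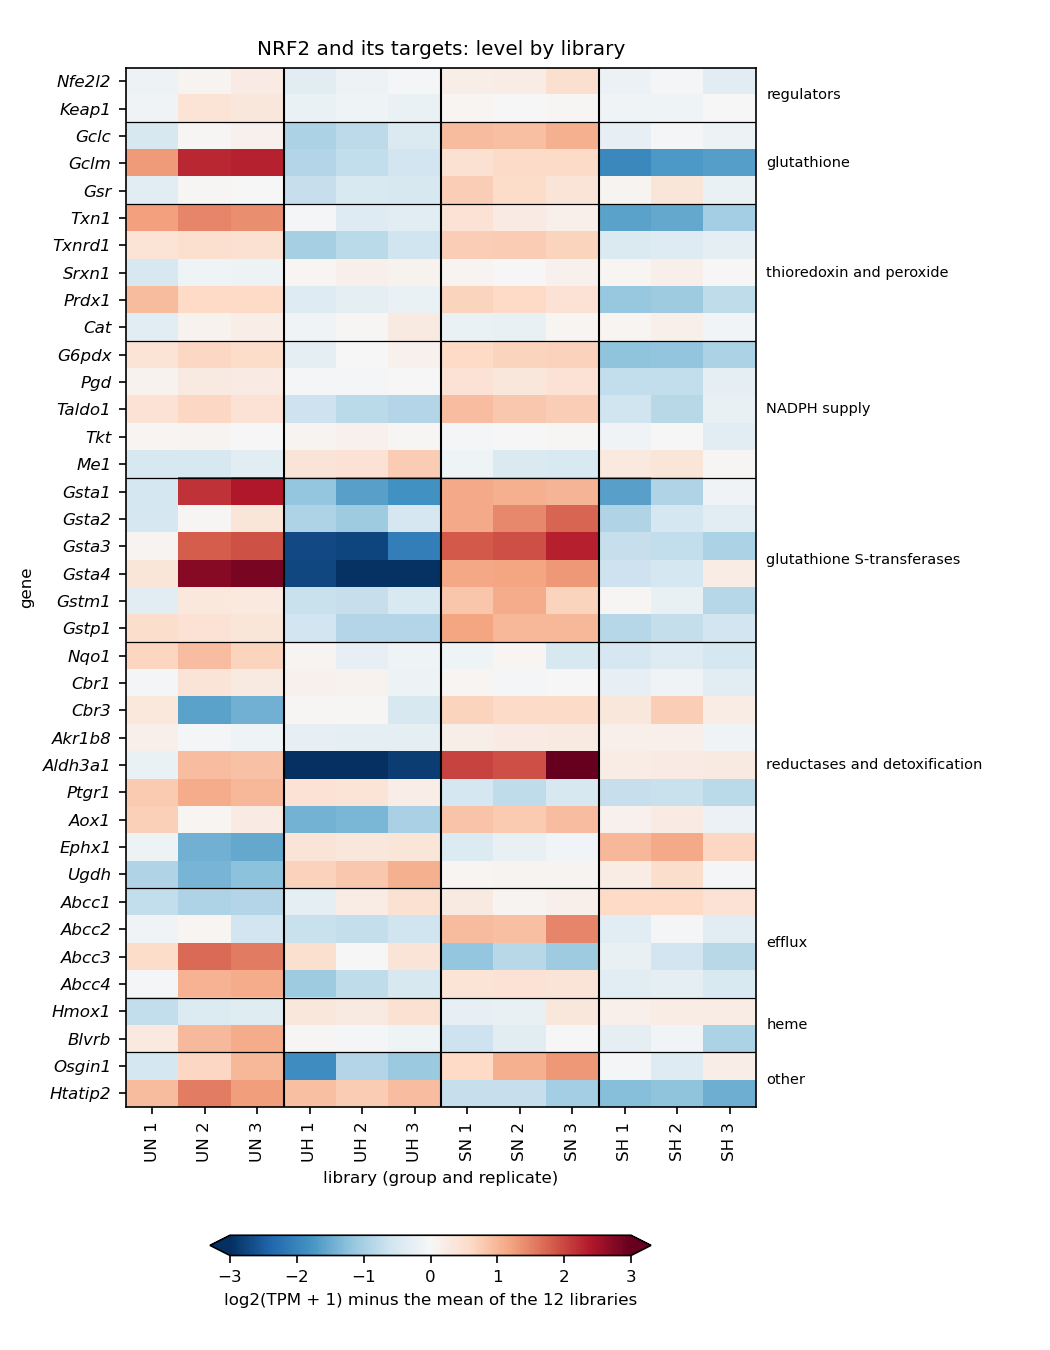
Levels of the 38 tested genes (rows, grouped by role) in the 12 libraries (columns, 3 per group), as log2(TPM + 1) minus the gene's mean over all libraries; the color scale ends at −3 and 3. Gclm, the Gsta genes and Aldh3a1 span wide ranges between groups, and UN replicate 1 lies below the other UN libraries for Gsta1, Gsta3, Gsta4 and Gclm.

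Some features of the libraries touch the results. UN replicate 1 stood apart from UN replicates 2 and 3 (Pearson's r across genes of 0.977 and 0.978, against 0.990 between the other pair), and values of the comparisons with UN cells are given without it where that changes a call or moves a fold by more than 1.5 times. It held 1960 TPM of the fibrillar collagen Col3a1, against 222 and 173 TPM in the other UN libraries. The summed level of 7 mesenchymal markers (Col1a1, Col1a2, Col3a1, Dcn, Lum, Pdgfrb and Pdgfra) was 1013 to 4314 TPM in UN, 4546 to 6806 in UH, 165 to 185 in SN and 41.1 to 65.3 in SH libraries, with Lum, a defining marker of fibroblasts, below 0.2 TPM throughout. In UH against UN cells Col1a1, Col1a2 and Col3a1 were called higher and Dcn, Pdgfrb and Pdgfra lower, so the sum follows the collagens there. Col1a1, Col1a2, Col3a1 and Pdgfra were lower in SN than UN cells, whereas Dcn and Pdgfrb were not called. The part of these genes in the results below was not tested. Of 8 endothelial markers, 6 stayed below 1 TPM in every library, and Tek, which encodes Tie2, was at 0.124 to 0.226 TPM in unsorted libraries apart from 0.0853 TPM in UH replicate 3 and at 2.07 to 3.29 TPM in sorted ones. Vwf, the remaining marker, was called higher with hypoxia in sorted cells and was not called in unsorted cells. The hepatocytic markers Alb, Ttr and Epcam did not pass 4.23, 0.474 and 0.310 TPM, whereas Krt18 was at 63.5 to 157 TPM in all libraries. Krt8 was at 33.7 to 84.9 TPM in unsorted and 4.20 to 12.2 TPM in sorted libraries, Dlk1 was at 13.5 to 83.8 TPM in unsorted and at most 1.61 TPM in sorted ones, and Afp was at 8.14 to 9.80 TPM in SN libraries. Afp was called higher in sorted than unsorted cells in normoxia and in hypoxia. Hnf4a and Gpc3 were called lower in UH than UN cells and in SN than UN cells. Of 5 leukocyte markers, Ptprc and Adgre1 were below 0.2 TPM, and Cd68 was at 51.2 to 55.9 TPM in SH libraries and at 2.63 to 13.7 TPM in the others. Csf1r was called higher with hypoxia in unsorted cells, and Lyz2 was called in no comparison. Cdkn2a was at 196 to 327 TPM in UN, 66.4 to 78.7 in UH, 10.4 to 16.5 in SN and 7.37 to 9.32 in SH libraries. A gene-level TPM does not show whether its transcripts carry a frameshift, so this checks the targeting of exon 2 in no direction. In bulk RNA, fewer cells of a kind and less RNA per cell cannot be told apart.

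Promoters are shown for 4 genes with an antioxidant response element core, TGACNNNGC, taken as those called in the most comparisons between groups, with ties broken by the larger fold change: Gclm and Gsta3, which fell with hypoxia, Ugdh, which rose in unsorted cells, and Htatip2, which was lower in sorted cells. The calls that chose them are given below. RefSeq promoters (GRCm38.p6, 250 bases before to 50 after a start) were at hand for 32 of the 39 genes, under 40 annotated starts. The other 7 (Abcc1, Abcc3, Aldh3a1, Gclc, Gsr, Gsta4 and Hmox1) were not searched. The core, searched on both strands, was in at least 1 promoter of 13 genes: Abcc2, Abcc4, G6pdx, Gclm, Gsta3, Htatip2, Me1, Nfe2l2, Pgd, Prdx1, Srxn1, Txnrd1 and Ugdh. They are 40.6% of the 32 genes, against 14.0% of all genes with a promoter, and hold the core at 15 of the 40 starts (37.5%), and 12.4% of all 32851 promoters of this length hold the core. The stricter TGACTCAGC, which is contained in the core and shared with the AP-1 site, was in the promoters of Htatip2, Me1 and Prdx1 and in 0.454% of all promoters. A match is a description of these letters and not a site of binding. Each sequence runs 5′ to 3′ on the strand of the gene, with the core or its reverse complement in capitals, and only bases before the earliest annotated start, or 30 bases around a match, are printed.

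Gclm, chr3:122245307-122245556, plus strand: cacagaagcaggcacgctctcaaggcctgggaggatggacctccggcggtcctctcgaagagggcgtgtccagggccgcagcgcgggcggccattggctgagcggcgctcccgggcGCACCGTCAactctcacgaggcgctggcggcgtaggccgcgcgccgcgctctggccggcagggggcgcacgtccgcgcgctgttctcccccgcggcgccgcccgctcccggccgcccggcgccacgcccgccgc
Gsta3, chr1:21240335-21240584, plus strand: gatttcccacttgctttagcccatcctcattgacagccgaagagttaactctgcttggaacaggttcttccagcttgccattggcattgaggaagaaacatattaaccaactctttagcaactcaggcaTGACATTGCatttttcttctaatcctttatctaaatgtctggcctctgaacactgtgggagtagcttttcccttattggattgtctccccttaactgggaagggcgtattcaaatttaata
Htatip2, first start, chr7:49759107-49759136, plus strand: ggccgcgagcGCGCTGTCAcccggaagacg
Htatip2, second start, chr7:49759453-49759482, plus strand: gtctgagctgTGACTCAGCacttccctagg
Ugdh, before the earliest start, chr5:65435950-65436092, minus strand: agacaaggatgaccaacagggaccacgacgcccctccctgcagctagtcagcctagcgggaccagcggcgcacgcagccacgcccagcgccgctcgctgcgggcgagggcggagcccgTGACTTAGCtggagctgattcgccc
Ugdh, after the earliest start, chr5:65435917-65435946, minus strand: tcctcaagggGCGTGGTCAtacagttcgga

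In Gclm the core lay on the opposite strand, 134 bases before the start, and in Gsta3 on the gene's own strand, 121 bases before it. Ugdh held one match on each strand. Htatip2, with 2 annotated starts, held the core on the opposite strand just after the first and the stricter element 49 bases before the second. Nfe2l2 itself held the core 240 bases before its start, at the edge of the window searched.

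Hypoxia was compared with normoxia separately in unsorted cells (UH vs UN) and in sorted cells (SH vs SN), which share no library. The spread of each gene was estimated over all 4 groups together, so a wide group also widens the standard errors of comparisons without it. In unsorted cells 13 of the 38 genes fell and 2 rose, a call being a Benjamini-Hochberg adjusted p under 0.05 in limma and a more than 2-fold change. Of all 18909 genes tested, 11.8% were called lower and 5.46% higher in this comparison. In sorted cells 16 of the 38 fell and 1 rose, against 5.0% and 7.47% of all genes. There were 11 genes lower in both, which is 84.6% of those lower in unsorted and 68.8% of those lower in sorted cells, and 3.40% of all genes tested were lower in both. They were Gclm, Txn1, Txnrd1, Prdx1, Taldo1, Gsta1, Gsta3, Gsta4, Gstp1, Aldh3a1 and Osgin1. Only Ephx1 was called higher in both, as were 2.97% of all genes. All UH libraries were below all UN libraries for 25 of the 38 genes and above them for 6, against 36.2% and 14.9% of all genes. All SH libraries were below all SN libraries for 25 and above them for 3, against 27.1% and 29.7% of all genes. The median log2 fold change of the 38 genes was −0.62 in unsorted and −0.64 in sorted cells, and that of all genes was −0.19 and 0.03. Fold changes are on the log2(TPM + 1) scale throughout, which understates the change of genes with low levels. Under median-of-ratios scaling between libraries the median of all genes in unsorted cells was 0 and that of the 38 genes −0.32, and the calls were 9 lower and 5 higher. Of all genes, 2222 were lower and 1032 higher as deposited, and 1217 and 1564 under that scaling. In the same libraries the hypoxia-induced genes Vegfa and Ndrg1 rose by 3.09 and 3.61 in unsorted and by 3.00 and 3.46 in sorted cells, on the log2 scale. They are part of a list of 8 hypoxia-induced genes, of which 7 were called higher in each comparison and Car9 in neither. The responses were not all alike. Slc2a1 had a lower response in sorted cells by the test of the difference. Egln3 was lower in sorted cells in normoxia and hypoxia, and Car9 in hypoxia.

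**Figure D2:**
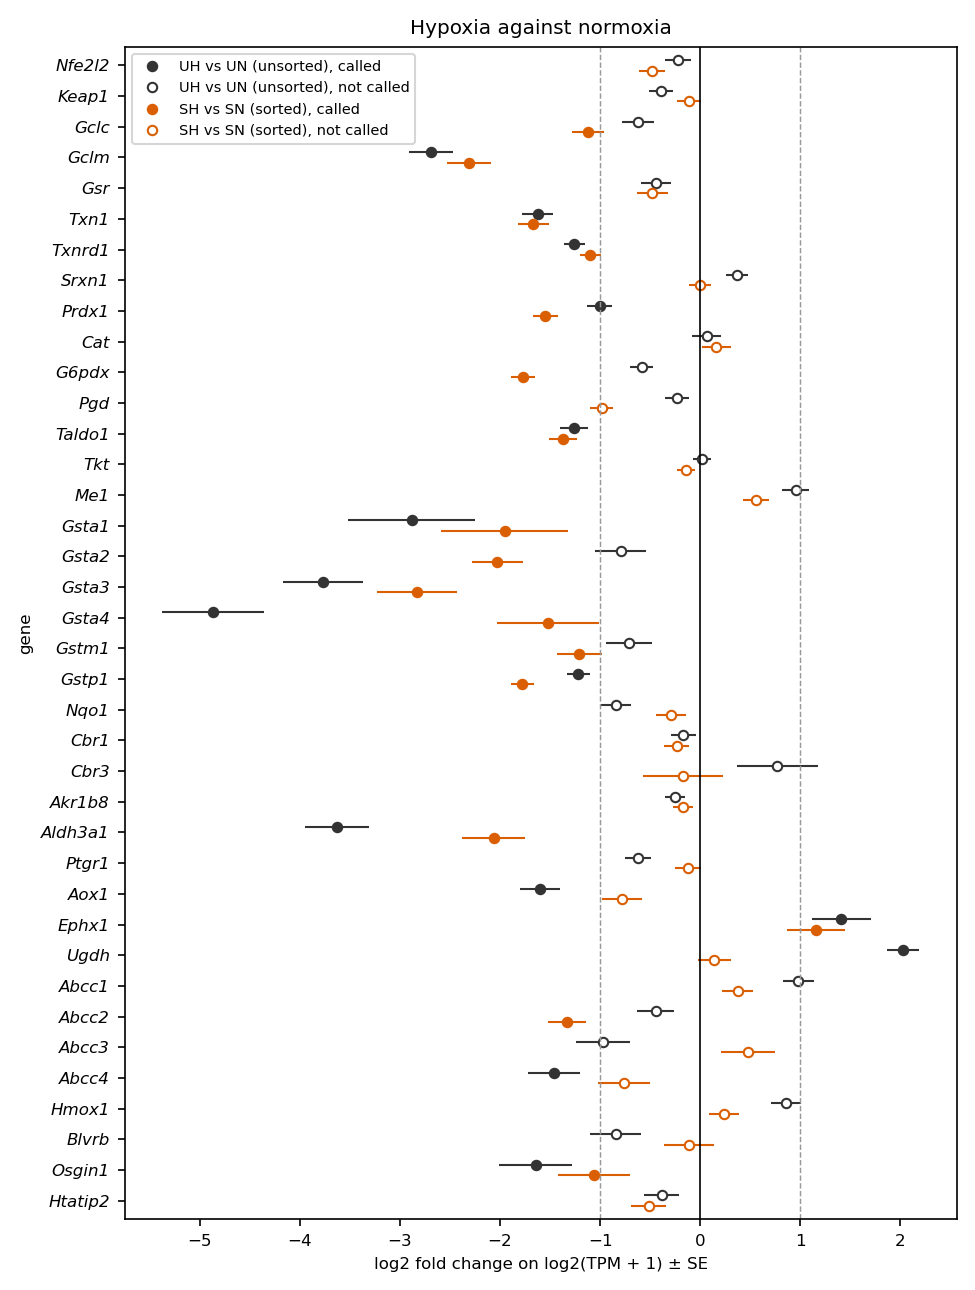
Log2 fold change of hypoxic against normoxic cells (x axis) for the 38 tested genes (y axis), in unsorted cells (black) and sorted cells (orange); bars are standard errors of the limma fit, filled points were called, and dashed lines mark 2-fold. Most filled points lie on the left, with Gsta4 at −4.86 in unsorted and −1.52 in sorted cells, and only Ephx1 and, in unsorted cells, Ugdh lie beyond the right dashed line.

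The genes of NRF2 and KEAP1 themselves moved little. Nfe2l2 (chr2:75675513-75704641, GRCm38) was at 94.0, 112 and 124 TPM in UN, 83.7, 94.6 and 103 TPM in UH, 120.2, 122 and 148 TPM in SN, and 92.9, 102 and 83.6 TPM in SH libraries. The UN and UH libraries overlapped, whereas all SH libraries were below all SN libraries. The log2 fold change was −0.23 ± 0.13 (SE, adjusted p = 0.181) in unsorted cells, with a 95% interval of −0.51 to 0.06, and −0.48 ± 0.13 (adjusted p = 0.0108) in sorted cells, under the fold required for a call. The unsorted difference changed sign, to 0.13, under median-of-ratios scaling. A gene-level value does not separate transcripts of the endogenous gene from those of the N vector, and whether vector transcripts were counted was not tested. Keap1 was at 49.0, 69.9 and 66.3 TPM in UN, 45.5, 47.7 and 45.8 in UH, 54.6, 53.1 and 54.1 in SN, and 48.9, 48.1 and 52.2 in SH libraries. Its UH libraries were all below the UN libraries, by −0.39 ± 0.12 on the log2 scale (adjusted p = 0.0176), and the difference in sorted cells was −0.11 ± 0.12 (adjusted p = 0.481).

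Both subunits of glutamate-cysteine ligase, the enzyme of the first and rate-limiting step of glutathione synthesis, changed, but in different ways. Gclm, the modifier subunit, was at 382, 754 and 782 TPM in UN libraries and at 84.0, 92.4 and 105 TPM in UH libraries. In sorted cells it was at 216, 233 and 234 TPM in normoxia and at 40.3, 46.4 and 48.9 TPM in hypoxia. No groups overlapped, and the order from high to low was UN, SN, UH and SH. Gclm fell by 2.69 ± 0.22 (SE, adjusted p = 2.21e-06) with hypoxia in unsorted cells and by 2.31 ± 0.22 (adjusted p = 1.19e-05) in sorted cells, which is 6.82-fold and 5.03-fold as a ratio of mean TPM. Without UN replicate 1 the unsorted change was −3.03. Gclm was also lower in sorted than unsorted cells in normoxia, by −1.42 ± 0.22 (adjusted p = 0.000494), and in hypoxia, by −1.03 ± 0.22 (adjusted p = 0.00295). The last of these calls was lost without UH replicate 3 (−0.95) or SH replicate 1 (−0.96).

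Gclc, the catalytic subunit, was at 69.3, 98.8 and 105 TPM in UN, 49.5, 55.1 and 71.0 in UH, 186, 182 and 204 in SN, and 81.3, 94.3 and 86.1 in SH libraries. The SN libraries were above all others. Gclc was 2.10-fold higher in SN than in UN cells (log2 1.08 ± 0.16, adjusted p = 0.000371), opposite in direction to Gclm. Without UN replicate 1 this was 0.90 and no longer a call. Gclc fell with hypoxia in sorted cells, by 1.12 ± 0.16 (adjusted p = 0.000214), and differed by −0.62 ± 0.16 (adjusted p = 0.00785) in unsorted cells. Gsr, which reduces oxidized glutathione, averaged 38.3 ± 4.99 TPM (SD, n = 3) in UN, 27.9 ± 2.48 in UH, 61.1 ± 7.23 in SN and 43.9 ± 8.53 in SH cells, and none of its differences reached 2-fold.

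**Figure D3:**
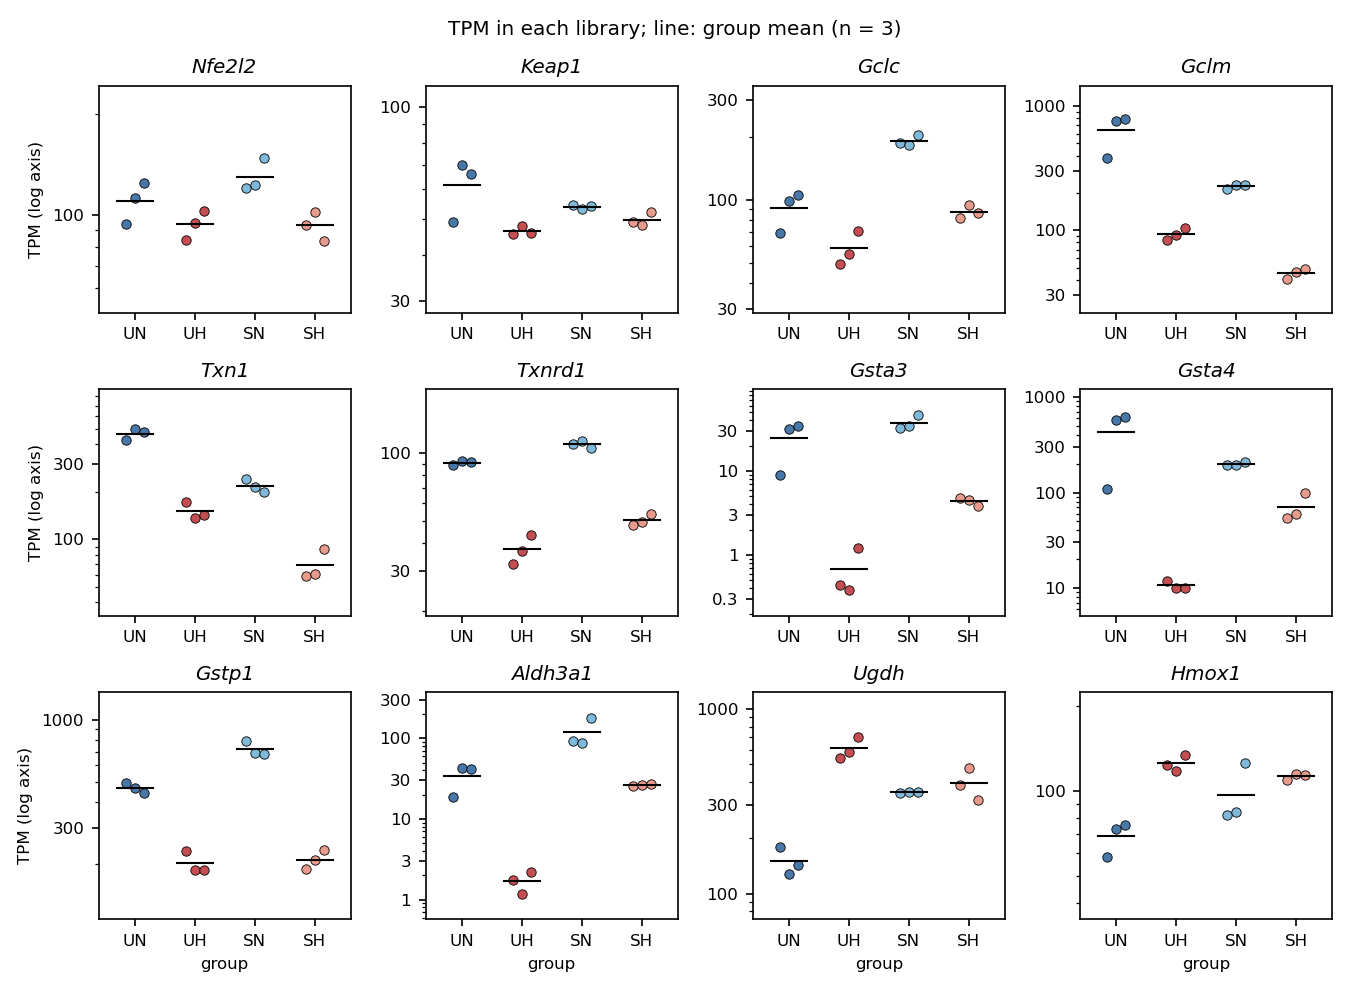
TPM of 12 of the genes (logarithmic axes) in each library, by group (UN, UH, SN and SH, 3 points each), with the group mean as a line. Within sorted and within unsorted cells, hypoxic points lie below normoxic ones for Gclm, Txn1, Txnrd1, Gsta3, Gsta4, Gstp1 and Aldh3a1, and Ugdh runs the other way in unsorted cells.

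Of the 5 thioredoxin and peroxide genes, Txn1, Txnrd1 and Prdx1 fell with hypoxia in both comparisons. Thioredoxin itself (Txn1), which reduces protein disulfides, was at 422, 499 and 474 TPM in UN, 173, 137 and 142 in UH, 242, 214 and 198 in SN, and 58.6, 60.9 and 87.3 in SH libraries. Its groups were separate and stood in the same order as those of Gclm. Txn1 fell with hypoxia by 1.62 ± 0.15 (adjusted p = 6.14e-06) in unsorted and by 1.67 ± 0.15 (adjusted p = 8.60e-06) in sorted cells. It was lower in sorted cells by −1.09 ± 0.15 (adjusted p = 0.000229) in normoxia and by −1.13 ± 0.15 (adjusted p = 0.000128) in hypoxia. Under median-of-ratios scaling the first of these was −0.97 and not a call.

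Txnrd1, the cytosolic thioredoxin reductase, was at 88.5, 92.4 and 91.4 TPM in UN and 32.5, 36.9 and 43.5 TPM in UH libraries. In sorted cells it was at 109.9, 113 and 106 TPM in SN and 48.2, 49.8 and 53.7 TPM in SH libraries. It fell by 1.26 ± 0.10 (adjusted p = 2.14e-06) and 1.10 ± 0.10 (adjusted p = 1.01e-05). The first change was −0.91 under median-of-ratios scaling and −0.99 under quantile normalization, and the second −0.98 under quantile normalization, none of which is a call. Prdx1, a peroxiredoxin that thioredoxin recycles, was at 565, 443 and 448 TPM in UN, 223, 241 and 257 in UH, 465, 443 and 394 in SN, and 133, 139.9 and 172 in SH libraries. It fell by 1.00 ± 0.13 (adjusted p = 5.48e-05) in unsorted cells, at the edge of the fold threshold, and by 1.55 ± 0.13 (adjusted p = 3.78e-06) in sorted cells. The first call was lost without UN replicate 1 (−0.89) or UH replicate 1 (−0.95) and under median-of-ratios scaling (−0.65) or quantile normalization (−0.86). Srxn1, which repairs overoxidized peroxiredoxins, and Cat, the peroxisomal catalase, were not called in any comparison, with group means of 33.3 to 43.0 TPM for Srxn1 and 94.8 to 108 TPM for Cat.

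Among the enzymes that supply NADPH the direction was mixed. Taldo1, transaldolase of the pentose phosphate pathway, was at 131, 149 and 131 TPM in UN, 63.1, 54.8 and 52.0 in UH, 185, 169 and 162 in SN, and 64.0, 54.0 and 82.2 in SH libraries. It fell by 1.26 ± 0.14 (adjusted p = 1.98e-05) in unsorted and 1.37 ± 0.14 (adjusted p = 1.76e-05) in sorted cells, though the first was −0.91 under median-of-ratios scaling. G6pdx, the first enzyme of that pathway, was at 68.6, 80.1 and 75.8 TPM in UN, 42.2, 51.0 and 56.2 in UH, 78.0, 82.6 and 84.1 in SN, and 21.7, 22.1 and 26.0 in SH libraries. The SH libraries were the lowest. G6pdx fell by 1.77 ± 0.12 (adjusted p = 8.60e-07) in sorted cells, against −0.58 ± 0.12 (adjusted p = 0.00155) in unsorted cells. It was lower in SH than UH cells by −1.06 ± 0.12 (adjusted p = 2.91e-05), a call lost without UH replicate 3 (−0.97). Pgd, the next dehydrogenase, averaged 104 ± 4.04 TPM (SD, n = 3) in SN and 52.8 ± 10.4 TPM in SH cells, a change of −0.99 ± 0.12 (adjusted p = 5.95e-05) just under the threshold. It passed without SN replicate 2 (−1.02) or SH replicate 3 (−1.14). Tkt, transketolase, averaged 119.5 to 138 TPM, and neither it nor Me1 was called. Me1, the cytosolic malic enzyme, was at 54.8, 54.7 and 61.0 TPM in UN and 101, 104 and 129.8 TPM in UH libraries, with no overlap and a difference of 0.95 ± 0.13 (adjusted p = 0.000103). It passed the fold threshold without UN replicate 3 (1.00), UH replicate 1 (1.02) or UH replicate 2 (1.00) and under median-of-ratios scaling (1.31). In sorted cells the difference was 0.56 ± 0.13 (adjusted p = 0.00492).

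The 6 glutathione S-transferases, which conjugate electrophiles to glutathione, were all called lower with hypoxia in sorted cells, and 4 of them in unsorted cells. Of all genes, 5.0% and 11.8% were lower in these comparisons. Gsta4, which acts on lipid peroxidation products such as 4-hydroxynonenal, was at 109.7, 572 and 614 TPM in UN, 11.97, 10.03 and 10.05 in UH, 193, 193 and 211 in SN, and 54.7, 59.1 and 99.5 in SH libraries. UN replicate 1 lay far below the other UN libraries and still above every UH library. Gsta4 fell by 4.86 ± 0.51 (adjusted p = 1.35e-05) in unsorted cells, 40.4-fold as a ratio of mean TPM, and by 5.67 without UN replicate 1. In sorted cells it fell by 1.52 ± 0.51 (adjusted p = 0.0317), a call lost without any 1 of SN replicates 1, 2 and 3 and SH replicates 1 and 2 (−1.54, −1.54, −1.48, −1.36 and −1.42) and with no filter on low values (adjusted p = 0.0596). All SH libraries were below all SN libraries, and this standard error comes from the spread in all 4 groups. The SD of Gsta4 was 280 TPM in UN, 1.11 in UH, 10.3 in SN and 24.7 TPM in SH cells. In SN against UN cells Gsta4 differed by −0.76 ± 0.51 (adjusted p = 0.284), and by −1.57 with a call without UN replicate 1. In hypoxia it was higher in sorted cells, by 2.58 ± 0.51 (adjusted p = 0.00175).

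Gsta3, an alpha-class transferase of liver, was at 8.87, 31.6 and 33.8 TPM in UN, 0.436, 0.382 and 1.22 in UH, 32.1, 34.6 and 46.2 in SN, and 4.80, 4.55 and 3.83 in SH libraries. The hypoxic groups did not overlap with the normoxic ones or with each other. It fell by 3.77 ± 0.40 (adjusted p = 1.48e-05) in unsorted and 2.83 ± 0.40 (adjusted p = 0.000179) in sorted cells, and was higher in SH than UH cells by 1.71 ± 0.40 (adjusted p = 0.00489). Without UN replicate 1 the unsorted change was −4.36, and the difference between SN and UN cells 0.18 in place of 0.77. Gsta1 was at 2.38, 21.1 and 24.7 TPM in UN, 1.18, 0.575 and 0.391 in UH, 9.69, 9.29 and 8.86 in SN, and 0.572, 1.62 and 3.52 in SH libraries. Again UN replicate 1 was far below the other UN libraries. Gsta1 fell by 2.88 ± 0.63 (adjusted p = 0.00280) and 1.95 ± 0.63 (adjusted p = 0.0278), the second a call lost without any 1 of SN replicates 1, 2 and 3 and SH replicates 1 and 2 (−1.93, −1.95, −1.98, −1.58 and −1.95) and with no filter on low values (adjusted p = 0.0538). The unsorted change of Gsta1 without UN replicate 1 was −3.82, and SN cells were lower than UN cells by −1.21 with a call, in place of −0.27. Gsta2 was at 0.637, 1.39 and 2.02 TPM in UN, 0.226, 0.118 and 0.646 in UH, 4.13, 5.30 and 6.83 in SN, and 0.255, 0.620 and 0.845 in SH libraries. It was higher in SN than UN cells by 1.48 ± 0.25 (adjusted p = 0.000899) and fell with hypoxia in sorted cells by 2.03 ± 0.25 (adjusted p = 7.58e-05). In unsorted cells its change was −0.80 ± 0.25 (adjusted p = 0.0223), and −1.03, a call, without UN replicate 1. The coding sequences of Gsta1 and Gsta2 are 97.6% identical in GENCODE M21, so reads can be assigned to the wrong one, and their separate values are uncertain.

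Gstp1, the pi-class enzyme and the most abundant of the 6 in sorted cells, was at 494, 466 and 442 TPM in UN, 232, 186 and 186 in UH, 787, 690.2 and 684 in SN, and 189, 208 and 233 in SH libraries. It fell by 1.22 ± 0.11 (adjusted p = 5.84e-06) in unsorted and 1.78 ± 0.11 (adjusted p = 6.49e-07) in sorted cells, the first being −0.86 under median-of-ratios scaling. Its coding sequence is 98.1% identical to that of Gstp2, and the 2 values may share reads. Gstm1, a mu-class enzyme, was at 129.8, 199.7 and 199.4 TPM in UN, 101, 98.95 and 117 in UH, 287, 348 and 255 in SN, and 167, 137 and 89.1 in SH libraries. It fell by 1.21 ± 0.23 (adjusted p = 0.00123) in sorted cells, a call lost without SH replicate 3 (−0.96), and differed by −0.71 ± 0.23 (adjusted p = 0.0220) in unsorted cells.

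The reductases and detoxifying enzymes held falls as well as the only rises with hypoxia among the 38 genes that passed the fold threshold and were called. Aldh3a1, an aldehyde dehydrogenase, was at 19.0, 42.4 and 41.2 TPM in UN, 1.77, 1.18 and 2.20 in UH, 92.7, 86.4 and 179.9 in SN, and 25.8, 26.2 and 26.9 in SH libraries. SN cells were above UN cells, and SH cells above UH cells, in every library. It fell with hypoxia by 3.63 ± 0.32 (adjusted p = 3.59e-06) in unsorted and 2.06 ± 0.32 (adjusted p = 0.000334) in sorted cells. Sorted cells were higher by 1.78 ± 0.32 (adjusted p = 0.00118) in normoxia and by 3.35 ± 0.32 (adjusted p = 9.11e-06), or 15.3-fold in mean TPM, in hypoxia. Aox1, an aldehyde oxidase, was at 8.07, 4.72 and 5.60 TPM in UN, 1.06, 1.13 and 1.81 in UH, 8.998, 8.504 and 9.47 in SN, and 5.08, 5.52 and 3.92 in SH libraries. It fell by 1.60 ± 0.20 (adjusted p = 4.80e-05) in unsorted cells, differed by −0.78 ± 0.20 (adjusted p = 0.00780) in sorted cells, and was higher in SH than UH cells by 1.33 ± 0.20 (adjusted p = 0.000258).

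Ugdh, which makes UDP-glucuronate for glucuronidation, was at 179, 127 and 143 TPM in UN and at 543, 582 and 702 TPM in UH libraries. In sorted cells it was at 349.5, 355 and 355 TPM in normoxia and at 387, 479 and 319 TPM in hypoxia. Unsorted cells thus differed 4.07-fold in mean TPM without overlap, while the sorted groups overlapped. Ugdh rose with hypoxia in unsorted cells by 2.03 ± 0.16 (adjusted p = 1.73e-06), against 0.14 ± 0.16 (adjusted p = 0.528, 95% interval −0.21 to 0.49) in sorted cells. It was higher in SN than UN cells by 1.25 ± 0.16 (adjusted p = 0.000127). Ephx1, microsomal epoxide hydrolase, was at 176, 72.6 and 67.2 TPM in UN, 257, 251 and 256 in UH, 148, 169 and 187 in SN, and 396, 437 and 303 in SH libraries. It rose by 1.41 ± 0.29 (adjusted p = 0.00180) in unsorted cells, or by 1.85 without UN replicate 1, and by 1.16 ± 0.29 (adjusted p = 0.00733) in sorted cells.

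Nqo1, NAD(P)H quinone dehydrogenase and a standard readout of NRF2 activity, was near the limit of the table. It was at 1.49, 2.04 and 1.53 TPM in UN, 0.677, 0.356 and 0.469 in UH, 0.470, 0.660 and 0.148 in SN, and 0.132, 0.213 and 0.112 in SH libraries. No Nqo1 difference was called as fitted. With a pseudocount of 0.1 in place of 1, its unsorted change of −0.84 ± 0.15 (adjusted p = 0.000727) became −1.59 and a call. Its difference between SN and UN cells, −0.92 ± 0.15 (adjusted p = 0.000644), became −1.89 and a call at that pseudocount. Without SN replicate 2 it was −1.04 and a call. In SH against UH cells Nqo1 differed by −0.38 (adjusted p = 0.0641), and by −1.24 with a call at a pseudocount of 0.1. Cbr3, a carbonyl reductase, was at 9.49, 1.76 and 2.10 TPM in UN, 7.59, 7.64 and 4.99 in UH, 12.4, 11.6 and 11.5 in SN, and 9.64, 13.0 and 8.79 in SH libraries. It was higher in SN than UN cells by 1.51 ± 0.40 (adjusted p = 0.0126), a call lost without UN replicate 2 (1.17) or 3 (1.25) and in a fit of these 2 groups alone (adjusted p = 0.0783), and the difference was 2.13 without UN replicate 1. Its unsorted response to hypoxia was 0.77 ± 0.40 (adjusted p = 0.142), and 1.38 with a call without UN replicate 1. Ptgr1, a prostaglandin reductase, was at 23.2, 29.3 and 27.1 TPM in UN, 17.8, 17.7 and 14.97 in UH, 8.76, 7.20 and 8.98 in SN, and 7.68, 7.81 and 7.05 in SH libraries. It was lower in sorted cells in normoxia, by −1.56 ± 0.13 (adjusted p = 4.56e-06), and in hypoxia, by −1.06 ± 0.13 (adjusted p = 6.50e-05). Cbr1, a second carbonyl reductase, averaged 51.0 to 69.5 TPM and Akr1b8, an aldo-keto reductase, 85.4 to 121 TPM, with no call.

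The 4 efflux pumps of the ABCC family, which export glutathione and glucuronide conjugates, went separate ways. Abcc4 was at 15.9, 34.9 and 37.1 TPM in UN, 7.38, 9.36 and 11.7 in UH, 22.5, 22.9 and 22.0 in SN, and 13.2, 13.6 and 11.8 in SH libraries. It fell by 1.46 ± 0.26 (adjusted p = 0.000734) in unsorted cells, or by 1.84 without UN replicate 1, and differed by −0.76 ± 0.26 (adjusted p = 0.0364) in sorted cells. Abcc2, the pump of the bile canaliculus, was at 0.570, 0.754 and 0.140 TPM in UN, 0.0725, 0.0361 and 0.119 in UH, 2.27, 2.15 and 3.64 in SN, and 0.338, 0.657 and 0.353 in SH libraries. It was higher in SN than UN cells by 1.31 ± 0.19 (adjusted p = 0.000271) and fell with hypoxia in sorted cells by 1.33 ± 0.19 (adjusted p = 0.000178). With a pseudocount of 0.1 its changes of −0.45 in UH and 0.42 in SH against UH cells became −1.58 and 1.62, both calls.

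Abcc3 was at 26.9, 60.8 and 55.5 TPM in UN, 25.8, 18.3 and 24.1 in UH, 7.57, 9.74 and 8.15 in SN, and 15.4, 11.9 and 9.73 in SH libraries. All sorted libraries were below all unsorted ones, and SN cells were lower than UN cells by −2.28 ± 0.27 (adjusted p = 7.43e-05), or 5.63-fold in mean TPM. With hypoxia in unsorted cells Abcc3 differed by −0.97 ± 0.27 (adjusted p = 0.0117), and this became a call without UN replicate 1 (−1.33), UH replicate 1 (−1.07) or UH replicate 3 (−1.02), and after rescaling without mitochondrially encoded genes (−1.03). In SH against UH cells it differed by −0.84 ± 0.27 (adjusted p = 0.0278), and by −1.05 with a call under median-of-ratios scaling. Abcc1 was at 26.2, 23.1 and 23.7 TPM in UN, 36.5, 52.4 and 61.0 in UH, 53.7, 47.2 and 49.8 in SN, and 67.9, 67.6 and 60.8 in SH libraries. The UN libraries were the lowest. It was higher in SN than UN cells by 1.02 ± 0.16 (adjusted p = 0.000409), a call lost without UN replicate 2 (0.98), UN replicate 3 (1.00) or SN replicate 1 (0.97). Its unsorted response to hypoxia was 0.98 ± 0.16 (adjusted p = 0.000291) and passed without UN replicate 1 (1.03) or UH replicate 1 (1.19), under median-of-ratios scaling (1.33) and quantile normalization (1.30), and with a pseudocount of 0.1 (1.01).

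Hmox1, heme oxygenase 1, which hypoxia-inducible factors also control, was at 58.4, 73.1 and 75.4 TPM in UN, 124, 118 and 134 in UH, 81.9, 84.0 and 125 in SN, and 109, 115 and 114 in SH libraries. All UH libraries were above all UN libraries, by 0.86 ± 0.15 (adjusted p = 0.000694), under the 2-fold threshold as deposited and past it under median-of-ratios scaling (1.21). In sorted cells the groups overlapped and the difference was 0.24 ± 0.15 (adjusted p = 0.241). Blvrb, biliverdin reductase B, was at 37.6, 60.8 and 67.0 TPM in UN, 31.0, 29.6 and 27.6 in UH, 19.4, 24.1 and 30.02 in SN, and 25.2, 28.8 and 15.1 in SH libraries. It was lower in SN than UN cells by −1.12 ± 0.25 (adjusted p = 0.00526), a call lost without UN replicate 3 (−0.96) or SN replicate 1 (−0.97) and, narrowly, under median-of-ratios scaling (−0.9975). With hypoxia in unsorted cells it differed by −0.85 ± 0.25 (adjusted p = 0.0167), and by −1.09 with a call without UN replicate 1.

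Osgin1, an oxidative stress-induced growth inhibitor, was at 54.4, 122 and 159 TPM in UN, 21.01, 42.5 and 36.3 in UH, 121, 166 and 196 in SN, and 77.0, 60.5 and 90.7 in SH libraries. It fell by 1.65 ± 0.36 (adjusted p = 0.00292) in unsorted cells, or by 2.09 without UN replicate 1, and by 1.06 ± 0.36 (adjusted p = 0.0357) in sorted cells. The second call was lost without SN replicate 2 or 3 or SH replicate 1 or 2 (−1.03, −0.90, −1.08 and −0.91), under quantile normalization (−0.96) and with no filter on low values (adjusted p = 0.0647). SH cells were higher than UH cells by 1.21 ± 0.36 (adjusted p = 0.0195), a call lost without UH replicate 1 (0.92), SH replicate 1 (1.19) or SH replicate 3 (1.07) and under median-of-ratios scaling (0.99). Htatip2, an oxidoreductase, was at 14.7, 22.8 and 18.6 TPM in UN, 14.2, 12.9 and 14.6 in UH, 4.10, 4.08 and 3.01 in SN, and 2.39, 2.55 and 1.96 in SH libraries. All sorted libraries were below all unsorted ones, by −2.05 ± 0.17 (adjusted p = 4.53e-06) in normoxia and −2.18 ± 0.17 (adjusted p = 2.10e-06) in hypoxia.

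Sorted and unsorted cells were compared in normoxia (SN vs UN) and in hypoxia (SH vs UH), which again share no library but share the estimate of the spread. Sorted cells differed from unsorted ones in selection for EGFP, flow sorting, an earlier exposure to hypoxia and the growth after it. These cannot be told apart here. SH vs UH, and the difference of responses below, also set a second hypoxic exposure against a first. In normoxia 7 of the 38 genes were higher in sorted cells (Aldh3a1, Cbr3, Gsta2, Abcc2, Ugdh, Gclc and Abcc1) and 6 were lower (Txn1, Blvrb, Gclm, Ptgr1, Htatip2 and Abcc3). Of all genes tested, 3.20% were higher and 7.57% lower, 10.8% in all. All SN libraries were above all UN libraries for 17 of the 38 genes and below them for 7, against 20.3% and 28.7% of all genes. In hypoxia 5 were higher (Aldh3a1, Gsta4, Gsta3, Aox1 and Osgin1) and 5 lower (Gclm, G6pdx, Ptgr1, Txn1 and Htatip2), against 7.65% and 5.35% of all genes. All SH libraries were above all UH libraries for 14 and below them for 13, against 34.5% and 17.2% of all genes. Aldh3a1 was higher in both comparisons, as were 1.53% of all genes, and Gclm, Txn1, Ptgr1 and Htatip2 were lower in both, as were 3.33% of all genes. The median log2 fold change of the 38 genes was 0.25 in normoxia and 0.08 in hypoxia, against −0.06 and 0.17 for all genes. Under median-of-ratios scaling the medians in hypoxia were −0.14 for the 38 genes and 0.03 for all genes. Under that scaling 1021 of all genes were higher and 1323 lower in SH than UH cells, against 1447 and 1012 as deposited. Without UN replicate 1, Gclc was no longer called in normoxia, and Gsta1 (−1.21), Gsta4 (−1.57) and Ephx1 (1.25) were.

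**Figure D4:**
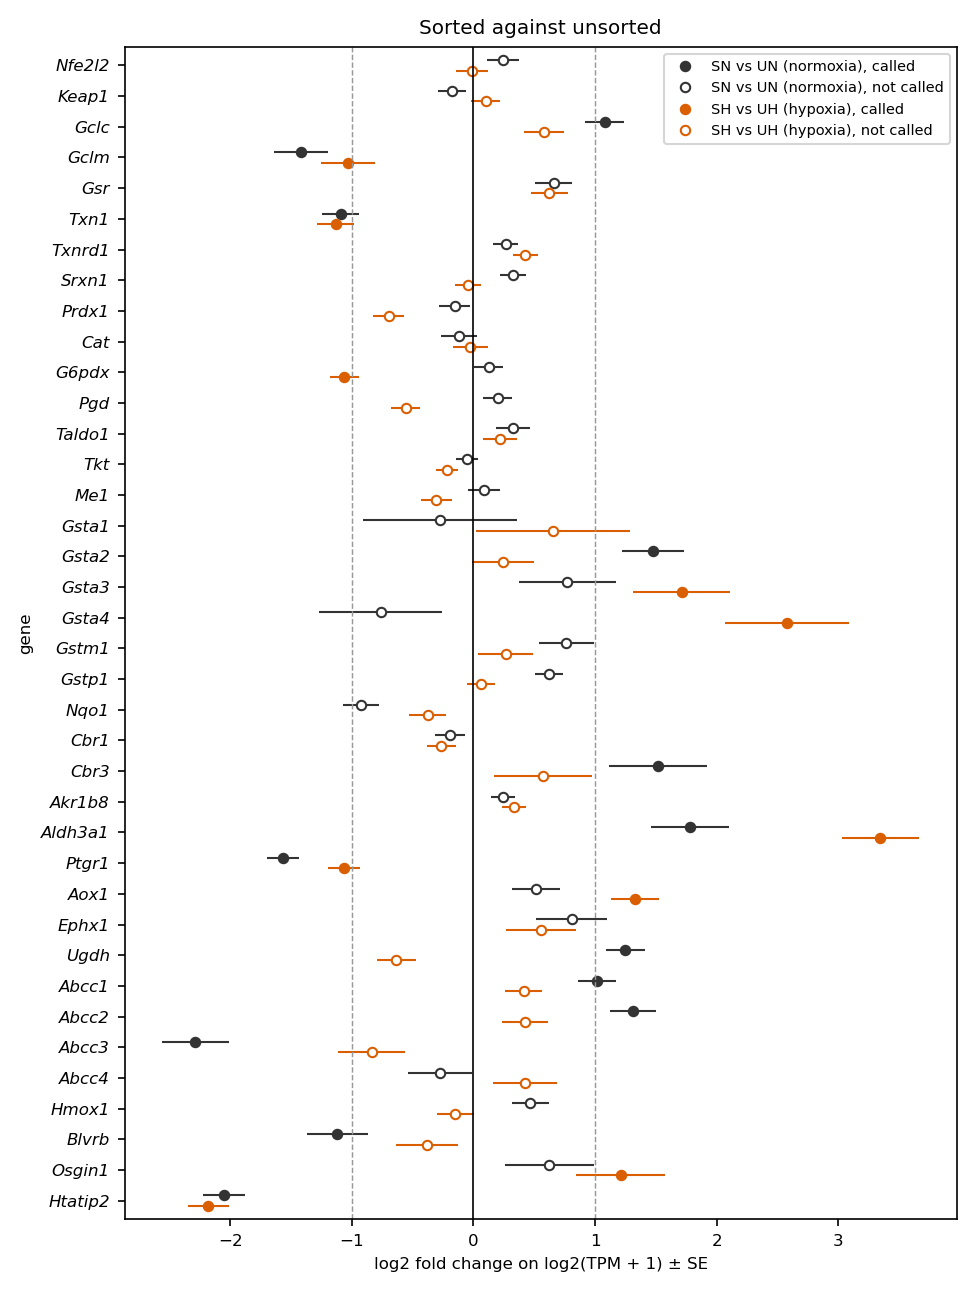
Log2 fold change of sorted against unsorted cells (x axis) for the 38 tested genes (y axis), in normoxia (black) and hypoxia (orange); bars are standard errors of the limma fit, filled points were called, and dashed lines mark 2-fold. Htatip2, Ptgr1, Txn1 and Gclm lie left of −1 in both comparisons, and Aldh3a1 lies right of 1 in both (1.78 and 3.35).

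The response to hypoxia was tested for a difference between sorted and unsorted cells as (SH − SN) − (UH − UN). Of the 38 genes, 6 were called, 3 in each direction, against 8.08% of all genes with a higher and 2.18% with a lower response in sorted cells, 10.3% in all. The 3 with a higher response in sorted cells were Gsta4 and Aldh3a1, which fell less there, with differences of 3.34 and 1.57, and Abcc3, with responses of −0.97 in unsorted and 0.48 in sorted cells and a difference of 1.45. The 3 with a lower response were Ugdh, Gsta2 and G6pdx, with differences of −1.88, −1.23 and −1.19. Gclc and Gstm1, called lower with hypoxia in sorted cells only, were not shown to respond differently, with differences of −0.50 ± 0.23 (adjusted p = 0.140) and −0.50 ± 0.32 (adjusted p = 0.287).

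Other genes of the same pathways were taken from lists of 132 genes, of which 130 were in the table and 122 were tested. With hypoxia 7 rose (5.74%) and 24 fell (19.7%) in unsorted cells, against 5.46% and 11.8% of all genes. In sorted cells 10 rose (8.20%) and 15 fell (12.3%), against 7.47% and 5.0% of all genes. The counts in unsorted cells were 12 and 28 without UN replicate 1. In that fit 1113 of all genes rose and 2620 fell, against 1032 and 2222 with it. Among 18 partners and regulators of NRF2, Maff, a small MAF protein that binds DNA with it, rose in both, by 2.46 ± 0.12 (adjusted p = 6.25e-08) and 1.24 ± 0.12 (adjusted p = 1.37e-05), from a mean of 25.3 to 143 TPM and from 47.4 to 114 TPM. Mafg, another small MAF protein, was not called in any comparison, and neither was Bach1, a repressor that competes for the same elements. Bach2, a related repressor, was lower in sorted cells, by −1.20 ± 0.22 (adjusted p = 0.00160) in normoxia and −1.27 ± 0.22 (adjusted p = 0.000849) in hypoxia.

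Of 16 further glutathione genes, Gpx3, the secreted glutathione peroxidase, averaged 27.4 TPM in UN, 437 in UH, 0.864 in SN and 6.92 in SH cells. It rose with hypoxia by 4.51 ± 0.52 (adjusted p = 3.01e-05) and 2.08 ± 0.52 (adjusted p = 0.00763), and was lower in sorted cells by −3.37 and −5.80. Its UN mean rests on UN replicate 1, at 63.2 TPM against 9.86 and 9.27 TPM in the others, and without that library the mean was 9.56 TPM, the unsorted rise 5.37 and the difference between SN and UN cells −2.50. Slc7a11, the cystine importer, stayed low, at means of 1.52 to 3.96 TPM, with no call. Of 17 superoxide and peroxide genes, Sod2, the mitochondrial superoxide dismutase, fell by 1.32 ± 0.16 (adjusted p = 3.30e-05) and 1.34 ± 0.16 (adjusted p = 4.60e-05). Sod3, its extracellular relative, also fell in both, whereas Prdx5, a peroxiredoxin, rose from 295 to 1166 TPM in unsorted cells (2.02 ± 0.19, adjusted p = 6.52e-06) and from 227 to 571 TPM in sorted cells (1.31 ± 0.19, adjusted p = 0.000229).

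Of 14 further NADPH genes, 6 fell (42.9%) and 2 rose (14.3%) in unsorted cells, and 3 fell (21.4%) and 1 rose (7.14%) in sorted cells, to be read against the shares of all genes given above for the same comparisons. In unsorted cells 3 rose without UN replicate 1, when 1113 of all genes rose, against 1032 with it. Those lower in both were the isocitrate dehydrogenases Idh1 (−1.85 and −1.52) and Idh2 (−1.51 and −1.01) and the transhydrogenase Nnt (−1.25 and −1.04). Me2, the mitochondrial malic enzyme, rose in both, by 2.45 and 1.49. Of 17 further transferases, 5 fell in unsorted cells (29.4%) and 3 in sorted cells (17.6%), against 11.8% and 5.0% of all genes. Without UN replicate 1, 7 fell and 2 rose in unsorted cells, when 2620 of all genes fell and 1113 rose. Mgst1, the microsomal enzyme, fell by 1.93 ± 0.15 and 2.66 ± 0.15, and Gsto1 by 1.62 ± 0.12 and 1.31 ± 0.12. Gstp2 was 3.18 ± 0.27 higher in SN than UN cells (adjusted p = 5.55e-06), with the limit on shared reads given for Gstp1. It differed by 0.64 ± 0.27 (adjusted p = 0.0742) with hypoxia in unsorted cells, and by 1.05 with a call without UN replicate 1.

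Of 24 further detoxifying enzymes, 7 fell in unsorted cells (29.2%, against 11.8% of all genes), and 6 fell (25%) and 1 rose (4.17%) in sorted cells, against 5.0% and 7.47%. In sorted against unsorted cells in normoxia, 6 were higher (25%) and 2 lower (8.33%), against 3.20% and 7.57% of all genes. Without UN replicate 1 the counts were 7 and 4. In that fit 744 of all genes were higher and 1714 lower, against 606 and 1431 with it. The aldo-keto reductases Akr1c12 and Akr1c13 and the retinal dehydrogenase Aldh1a1 were higher in sorted cells in both, by 1.85, 2.58 and 2.49 in normoxia and by 1.20, 1.59 and 1.34 in hypoxia. Of 8 further efflux genes, Abcb1b, a P-glycoprotein gene, fell by 1.496 ± 0.16 (adjusted p = 1.25e-05) in unsorted cells and differed by 0.29 ± 0.16 (adjusted p = 0.166) in sorted cells, and the difference between these responses was called (1.78 ± 0.22, adjusted p = 0.000306). Of 8 further heme and iron genes, Fth1, the ferritin heavy chain, fell by 1.44 ± 0.11 (adjusted p = 1.76e-06) in unsorted and 1.43 ± 0.11 (adjusted p = 3.11e-06) in sorted cells, from means of 5457 and 9190 TPM. Ftl1, the light chain, was not called. Mafg, Bach1, Slc7a11 and Ftl1 were named after their values were seen, since they stand outside the rule for naming genes of these lists.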

How the data were processed

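RNA was purified from 12 samples, labelled as 4 groups of 3, and stranded mRNA libraries were sequenced as paired-end reads. The authors deposited TPM per gene from the Salmon step of nf-core/rnaseq 3.12.0 (mm10, per the labels), which sum to 1000000 in every library; the annotation release is not given in the sources used here. The depth is unknown, so no counting error is given. Gene identifiers were matched to GENCODE M21 (98.8% found). TPM were transformed as log2(TPM + 1), and the 18909 genes with a mean of at least 0.1 TPM entered a fit of 4 group means by limma 3.58.1 (R 4.3.3), using a variance trend and Benjamini-Hochberg adjustment over all genes; the method was tested on simulated data. Values are given in full for genes called in any of 4 comparisons and for 7 core genes, and for the rest as means; from other lists, genes were named from the 3 with the largest called change in each direction and comparison. The genes and lists were chosen with earlier results of these data known. Promoters are from RefSeq, and coding sequences were aligned with Biopython 1.88. Alternatives were another pseudocount, filter, scaling, block, fit or threshold, and leaving out each library.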

Additional observations from a re-analysis of the deposited data

Results flagged for a closer look

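The 6 genes below responded to hypoxia differently in sorted and unsorted cells by the test of the difference itself, (SH − SN) − (UH − UN), in limma with a Benjamini-Hochberg adjusted p. Gsta4 differed by 3.34 ± 0.72 (SE, adjusted p = 0.00754), having fallen by 4.86 in unsorted and by 1.52 in sorted cells, and by 4.15 without UN replicate 1. Ugdh differed by −1.88 ± 0.23 (adjusted p = 0.000277), with a called rise in unsorted cells. G6pdx differed by −1.19 ± 0.17 (adjusted p = 0.000695), with the deeper fall in sorted cells. These 3 were called without each of the 12 libraries in turn.

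Aldh3a1 differed by 1.57 ± 0.45 (adjusted p = 0.0289), and the call was lost without UN replicate 2 or 3, UH replicate 2, SN replicate 1 or 2, or any SH replicate (1.37 to 1.58), under median-of-ratios scaling (1.30) and with no filter on low values (adjusted p = 0.0520). Abcc3 differed by 1.45 ± 0.39 (adjusted p = 0.0209), and the call was lost without UN replicate 2 (1.23) or 3 (1.30), UH replicate 2 (1.30) or SH replicate 1 (1.29), and under median-of-ratios scaling (1.11) or quantile normalization (1.14). Gsta2 differed by −1.23 ± 0.36 (adjusted p = 0.0302), and the call was lost without UN replicate 1 (−0.99) or 2 (−1.27), UH replicate 3 (−1.07), SN replicate 2 (−1.23) or 3 (−1.08), or SH replicate 1 (−1.08) or 2 (−1.26), with a pseudocount of 0.1 (−1.30) and with no filter on low values (adjusted p = 0.0553). Gsta2 also shares most of its coding sequence with Gsta1. Without UN replicate 1, Gsta1 (1.87), Gsta3 (1.53), Cbr3 (−1.56) and Abcc4 (1.08) passed as well, and Abcc2 (−1.02) without UN replicate 2.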

How the results depend on the processing

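No difference changed direction and stayed called under any alternative tried. Over all alternatives, 3980 of the values for single genes kept their side of the threshold, 71 lost a call, 47 of them through the adjusted p, and 81 gained one, 39 of them with no fold threshold. Values of the other pathway genes without UN replicate 1 were an alternative chosen after seeing the data. In UH vs UN, 5 genes were higher with median-of-ratios scaling and 5 with quantile normalization, against 2 as deposited. Of all genes, 1564, 1445 and 1032 were higher under these settings, in the same order. With no fold threshold, 6 were higher and 23 lower in UH vs UN, against 2453 and 6326 of all 18909 genes. In SH vs SN 2 were higher and 22 lower, against 4062 and 3694. In SN vs UN 12 were higher and 7 lower, against 2455 and 3956. In SH vs UH 9 were higher and 9 lower, against 5355 and 2528. For the difference of responses 10 were called, against 3298 of all genes higher and 853 lower. Leaving out 1 library at a time gave 2 to 4 higher and 13 to 15 lower in UH vs UN, 1 higher throughout and 13 to 16 lower in SH vs SN, 5 to 7 higher and 5 to 8 lower in SN vs UN, in SH vs UH 4 to 5 higher and 3 to 5 lower, and 3 to 9 for the difference of responses. The 4 higher came without UN replicate 1 or UH replicate 1, the 3 lower in SH vs UH without UH replicate 3, and the 3 for the difference of responses without SH replicate 1. In these fits 1113 and 1152 of all genes were higher in UH vs UN, and 952 were lower in SH vs UH. For the difference of responses without SH replicate 1, 1333 of all genes were higher and 383 lower. The 9 came without UN replicate 1, when 2117 of all genes were higher and 636 lower. Under median-of-ratios scaling 901 of all genes had a higher and 782 a lower response in sorted cells, against 1527 and 412 as deposited. Replicate numbers did not pair the libraries (correlations of residuals of −0.0631 to 0.141), and a replicate block left every count as it was (2 and 13, 1 and 16, 7 and 6, 5 and 5, and 6). Genes near 0 TPM, such as Abcc2, Gsta2 and Nqo1, are limited by the unknown depth.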

Other observations

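Some of the genes are neighbors in GRCm38. Gclc (chr9:77754535-77794485), Gsta4 (chr9:78182774-78209349), Gsta1 (chr9:78230656-78242684) and Gsta2 (chr9:78331018-78355788) lie in a row, with gaps of 388, 21.3 and 88.3 kb, and Cbr1 and Cbr3 lie 72.7 kb apart on chromosome 16. The next nearest pair, Ptgr1 and Txn1, was 1010 kb apart. Gclc, Gsta4, Gsta1 and Gsta2 were all called lower with hypoxia in sorted cells. The calls of Gsta1 and Gsta4 were each lost under 6 of 22 alternatives. In SN against UN cells Gclc and Gsta2 were higher and Gsta1 and Gsta4 were not called. Without UN replicate 1 Gclc was not called there, and Gsta1 and Gsta4 were called lower. Keap1 and Me1, also on chromosome 9 but far from this row, were not called. Cbr1 and Cbr3, with 77.4% identity of their coding sequences, differed in level, with means of 69.5 and 4.45 TPM in UN cells, the second being 1.93 TPM without UN replicate 1.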
